A study of Saccharomyces cerevisiae with 13 samples.

Results

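The genes of polyphosphate synthesis and breakdown were followed in budding yeast, Saccharomyces cerevisiae. In the experiment, spermidine or spermine was given to a mutant that the series title calls polyamine-deficient. The members were chosen by name: VTC1, VTC2, VTC3 and VTC4 of the vacuolar transporter chaperone complex, and the polyphosphatase genes PPX1 and PPN1. These 6 genes, of 5656 named by a probe set, carry the locus tags YER072W, YFL004W, YPL019C, YJL012C, YHR201C and YDR452W, and none overlaps another gene in the reference table. VTC4 is read by 2 probe sets and the others by 1 each. All 6 passed the filter on dim probe sets that left 5102 genes for testing.

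The data are 13 Affymetrix arrays of a single colour, each reading transcript levels in total RNA, 5 of control cells, 5 of spermidine-treated cells and 3 of spermine-treated cells. The treated samples are labelled as a double deletion, delta-spe3 delta-fms1. SPE3 encodes spermidine synthase and FMS1 the oxidase that converts spermine to spermidine, so such cells can neither make spermidine nor obtain it from added spermine. The control labels name no genotype, but the series title speaks of a polyamine-deficient mutant. Signals of SPE3 (0.57 to 13.8) and FMS1 (1.10 to 8.10) were low on all 13 arrays, controls included. Dose, exposure time and medium were, for all treated samples, not given in the sources used here. Nor do the labels say that replicates were separate cultures, so the spread behind the p-values may be technical, and its precision is limited by the number of arrays.

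Polyphosphate is a chain of phosphate residues that fills the yeast vacuole, where its negative charge balances basic amino acids, polyamines and metal ions. The VTC complex makes it at the membrane and feeds it into the vacuole. Vtc4 is the polymerase subunit, Vtc1 is a small membrane subunit, and Vtc2 and Vtc3 are related subunits that alternate in the complex, the Vtc3 form lying mainly at the vacuole and the Vtc2 form mainly at the endoplasmic reticulum and cell periphery. Several of these genes are known as targets of Pho4, the transcription factor of the phosphate starvation response. Ppx1 is a cytosolic exopolyphosphatase, and Ppn1 a vacuolar enzyme that cuts and trims the chains.

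Signals are in the linear units of the deposited table and are written in replicate order. Differences are log2 values of quantile normalized signals ± SE from limma, with Benjamini-Hochberg adjusted p-values over all 5102 genes and a threshold of 0.05. Probe sets differ in brightness for reasons other than transcript number, so signals of different genes are not ranked against each other. The lowest signal of any member was 148, against a highest 95th percentile of 25.4 on any array among 19 control probe sets of other organisms, so all members were measured above background.

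Some arrays stood apart. Relative to the control mean, the average of 22 general stress genes (log2) was 1.14 on control 2 and 1.09 on control 3, but -0.90 to -0.45 on controls 1, 4 and 5. Spermine 1 stood at 0.59 and the other spermine arrays at -1.16 and -0.66, whereas all spermidine arrays were low, from -1.94 to -1.30. Of the 22 stress genes 11 fell with spermidine (14.7% of all genes tested fell) and 0 rose, and 7 were higher with spermine than with spermidine (9.41% of all genes were). Each comparison below was therefore repeated without controls 2 and 3, and without these and spermine 1.

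With spermidine, 3 of the 6 members rose, all of them VTC genes, and 0 fell. VTC3 rose 3.37-fold, VTC4 1.90-fold and VTC1 by 0.58 on the log2 scale. VTC2 and both polyphosphatase genes did not pass the test. Over all genes tested, 32.6% were called in this comparison, 17.9% higher and 14.7% lower, so 3 called members of 6 are to be read against a broad response. The median log2 difference of the members was 0.52, beside 0.02 over all 5102 genes.

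VTC4, the polymerase gene, had signals of 971, 952, 989, 989.8 and 834 on the controls and 1859, 1869.6, 2004, 1665 and 1816 with spermidine. The groups do not overlap, and each was tight, with means of 947 ± 65.1 (SD, n = 5) and 1843 ± 122 (SD, n = 5). The difference was log2 0.92 ± 0.12 (limma adjusted p = 5.92e-05), and 0.95 ± 0.14 without controls 2 and 3. The other VTC4 probe set gave signals of 563 to 886 on controls and 1385 to 1948 with spermidine, a 2.09-fold rise (log2 1.06 ± 0.15).

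VTC3, the alternating subunit of the vacuolar form, showed the widest separation among the members. Its control signals were 250.03, 186, 148, 211 and 186, and those with spermidine were 761, 479.8, 697, 823 and 568. Every spermidine array was above every control, the means being 196 ± 37.6 (SD, n = 5) and 666 ± 141 (SD, n = 5). The log2 difference was 1.75 ± 0.20 (limma adjusted p = 1.98e-05), and 1.59 ± 0.22 without controls 2 and 3.

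VTC1, the small membrane subunit, changed less. Controls gave 2566, 2053, 1549, 1906 and 2030.1, and spermidine arrays 3336, 3232, 2433, 2958 and 3045. Control 1 lay above spermidine 3, so the groups overlap in that pair of arrays. The log2 difference was 0.58 ± 0.17 (limma adjusted p = 0.0158). Without controls 2 and 3 it was 0.47 ± 0.19 and missed the threshold (adjusted p = 0.0740), the only 1 of 25 settings that lost the call. With spermine 1 left out as well it was 0.47 ± 0.16 (adjusted p = 0.0416).

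VTC2, whose product takes the place of Vtc3 in the other form of the complex, had control signals of 535, 367, 336, 630.0 and 577 and spermidine signals of 499.6, 447, 576, 499.5 and 478. All 5 spermidine values fall inside the control range, and controls 2 and 3 were the lowest of the 10 arrays. The log2 difference was 0.07 ± 0.17 (limma adjusted p = 0.797), with a 95% confidence interval from -0.30 to 0.44. That interval lies below the one for VTC3, which runs from 1.32 to 2.19. Without controls 2 and 3 the VTC2 value was -0.22 ± 0.13 (adjusted p = 0.237).

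**Figure D1:**
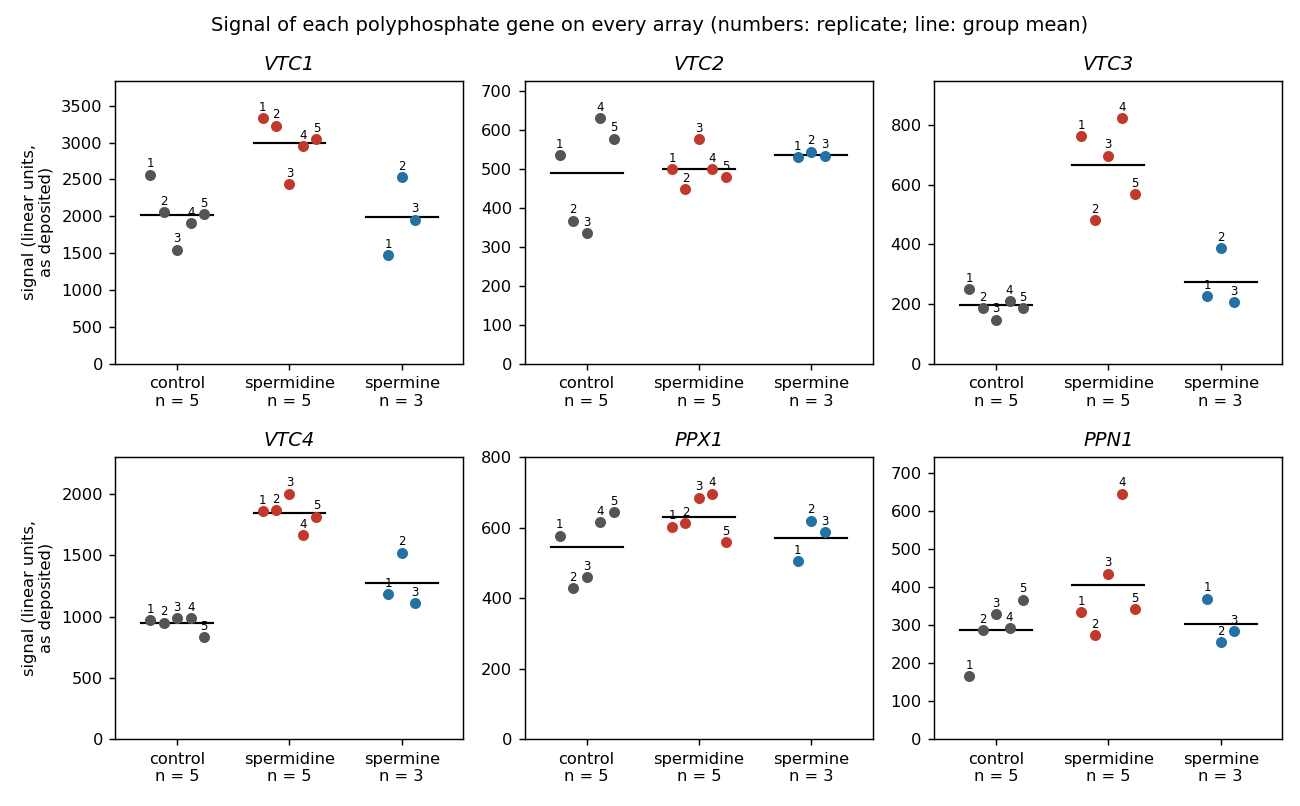
Deposited signal (linear units, vertical axis from 0) of the 6 members on each of the 13 arrays, by group, with the replicate number above each point and a line at the group mean. VTC3 and VTC4 are higher on every spermidine array than on every control, VTC1 overlaps in 1 pair of arrays, and VTC2 and PPX1 are lowest on controls 2 and 3.

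Setting VTC3 against VTC2 within each array removes any factor that scales a whole array. The log2 ratio of the signals was -1.10, -0.98, -1.18, -1.58 and -1.63 on controls and 0.61, 0.10, 0.27, 0.72 and 0.25 with spermidine. It was -1.22, -0.49 and -1.38 with spermine. The ratio was higher on every spermidine array than on any control or spermine array, its mean being -1.29 ± 0.29 (SD, n = 5), 0.39 ± 0.26 (SD, n = 5) and -1.03 ± 0.47 (SD, n = 3) in the order control, spermidine and spermine. Between spermidine and control this is a 3.22-fold shift in relative signal. It is a description of an unequal change, chosen after the values were seen and not tested, and signals of 2 probe sets do not give the proportion of the transcripts.

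Of the degradation genes, PPX1 gave 578, 429.8, 460.1, 617 and 644 on controls and 603, 612, 686, 697 and 558 with spermidine. The groups overlap, with controls 2 and 3 again the lowest. Its log2 difference was 0.22 ± 0.14 (limma adjusted p = 0.243, 95% confidence interval -0.08 to 0.53), and without controls 2 and 3 it was 0.04 ± 0.14. PPN1 gave 167, 288, 328, 293 and 367 on controls and 334, 274, 436, 646 and 342 with spermidine. Control 1 was low and spermidine 4 high. Its log2 difference was 0.46 ± 0.23 (limma adjusted p = 0.135), and its interval, -0.02 to 0.95, leaves room for a rise as large as that of VTC1.

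PPN2, DDP1 and VTC5 act in the same pathway and were looked at beside the members. PPN2 encodes a further vacuolar endopolyphosphatase. Its control signals were 168, 100.3, 132, 202 and 187 and its spermidine signals 556, 389, 482, 652 and 631. The groups are far apart, at 158 ± 41.5 (SD, n = 5) and 542 ± 109 (SD, n = 5), a 3.50-fold rise (log2 1.81 ± 0.24, limma adjusted p = 6.27e-05). Leaving out controls 2 and 3 kept this call (adjusted p = 3.63e-04). DDP1, a phosphatase of inositol pyrophosphates that also cuts polyphosphate, ranged from 128 to 188 on controls and from 96.2 to 254 with spermidine (log2 0.11 ± 0.19, adjusted p = 0.679).

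VTC5, an accessory subunit of the VTC complex that raises its output, went against VTC1, VTC3 and VTC4. Its brightest probe set gave 107, 189, 155, 178 and 132 on controls, 84.2, 100.2, 134, 141 and 101 with spermidine, and 268, 164 and 329 with spermine. Spermidine 1, 2 and 5 lie below every control and spermidine 3 and 4 within the control range, while spermine 1 and 3 lie above it and spermine 2 within it. Against control, spermidine gave log2 -0.45 ± 0.21 (limma adjusted p = 0.107), not past the threshold. The next brightest probe set had 94.97 to 119.7 on controls and 47.4 to 89.5 with spermidine, and there the difference was -0.71 ± 0.20 (adjusted p = 0.0130 over 6956 probe sets). The dimmest of those tested gave -0.24 ± 0.17, and the mean of all the probe sets that passed the filter gave -0.47 ± 0.15 (adjusted p = 0.0243). The 3 tested probe sets share the negative sign with spermidine, and the call depends on which of them stands for the gene. A further probe set was too dim to be tested, with group means of 47.0, 18.7 and 83.1 in controls, spermidine and spermine.

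**Figure D2:**
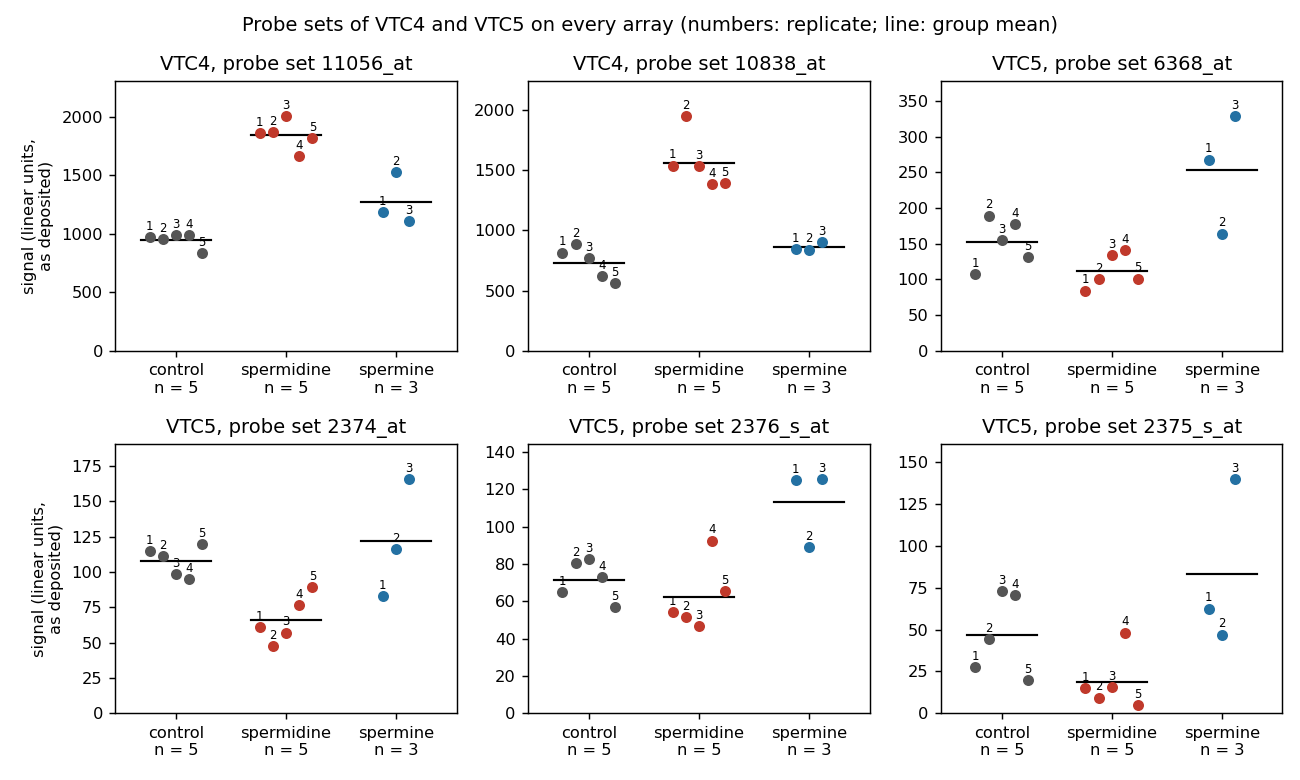
Deposited signal (linear units, vertical axis from 0) of the 2 probe sets of VTC4 and the 4 probe sets of VTC5 on each array, by group, with replicate numbers and group means. Both VTC4 probe sets are higher on every spermidine array than on every control, and the mean of each VTC5 probe set is lowest with spermidine and highest with spermine.

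With spermine, 0 of the 6 members passed the test against the same 5 controls, in a comparison in which limma called 1 of 5102 genes (0.0196%). VTC4 alone of the members had an unadjusted limma p under 0.05, a cut for which the share of all genes was not counted. VTC4 gave 1185, 1523 and 1109 with spermine, all above the control maximum of 989.8. The difference was log2 0.43 ± 0.14 (limma adjusted p = 0.370). Its other probe set gave 847, 839 and 904, overlapping the controls, with log2 0.25 ± 0.17. VTC3 gave 227, 386 and 205 with spermine, spermine 2 standing above the rest and the other arrays within the control range (log2 0.41 ± 0.24, adjusted p = 0.696, 95% confidence interval -0.10 to 0.92).

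VTC1 had 1471, 2527 and 1956 with spermine (log2 -0.00 ± 0.19, limma adjusted p = 0.997), spermine 1 being lower than every control. VTC2 had 529, 543 and 533, the narrowest group of any member, at log2 0.15 ± 0.20 (adjusted p = 0.882). PPX1 had 505, 620.3 and 587 and PPN1 had 370.0, 257 and 285, with log2 0.07 ± 0.16 and 0.06 ± 0.26. Intervals against control, unadjusted for the number of genes, ran from 0.13 to 0.73 for VTC4. Those of the other members included 0 and reached 0.92 for VTC3, 0.58 for VTC2, 0.42 for PPX1, 0.62 for PPN1 and 0.41 for VTC1. The values of PPN2, VTC5 and DDP1 were 0.35 ± 0.28, 0.69 ± 0.24 and 0.08 ± 0.22, and none of them was called.

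Spermine and spermidine differ by an additional aminopropyl unit in spermine, and their arrays were compared directly. Whether their doses were matched is not known here, nor whether cells given spermidine turned part of it into spermine. Over all genes 20.5% were called in this comparison. Of the 6 members 3 were lower with spermine than with spermidine and 0 higher, against 11.1% of all genes lower and 9.41% higher. VTC3 was 2.54-fold lower (log2 -1.34 ± 0.24, limma adjusted p = 0.00102), and no spermine array reached the lowest spermidine array. VTC4 was 1.41-fold lower (log2 -0.49 ± 0.14, adjusted p = 0.0236), again without overlap. Its other probe set was 1.76-fold lower (log2 -0.81 ± 0.17, limma adjusted p = 0.00424 over 6956 probe sets), also without overlap. VTC1 was lower as well (log2 -0.59 ± 0.19, adjusted p = 0.0449), with spermine 2 above spermidine 3. VTC2 (0.09, interval -0.34 to 0.52), PPX1 (-0.15, interval -0.50 to 0.20) and PPN1 (-0.41, interval -0.97 to 0.16) did not pass.

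The calls of VTC4, on its brighter probe set, and of VTC1 between the polyamines depended on single spermine arrays. Without spermine 1 the values were -0.43 (adjusted p = 0.0955) and -0.38 (adjusted p = 0.220), and without spermine 3 they were -0.40 (adjusted p = 0.114) and -0.62 (adjusted p = 0.0910). The count of 3 then falls to 1, VTC3. The VTC1 call was lost in 14 of 25 settings in all, with adjusted p-values up to 0.220, while VTC3 passed in all 25, at 0.00998 or below. Outside the members, PPN2 was 2.74-fold lower with spermine (log2 -1.46 ± 0.28, limma adjusted p = 0.00192) and VTC5 2.20-fold higher (log2 1.14 ± 0.24, adjusted p = 0.00335). Those 2 calls held in every setting tried, and all 3 tested VTC5 probe sets were called higher with spermine than with spermidine (log2 0.82 to 1.14).

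**Figure D3:**
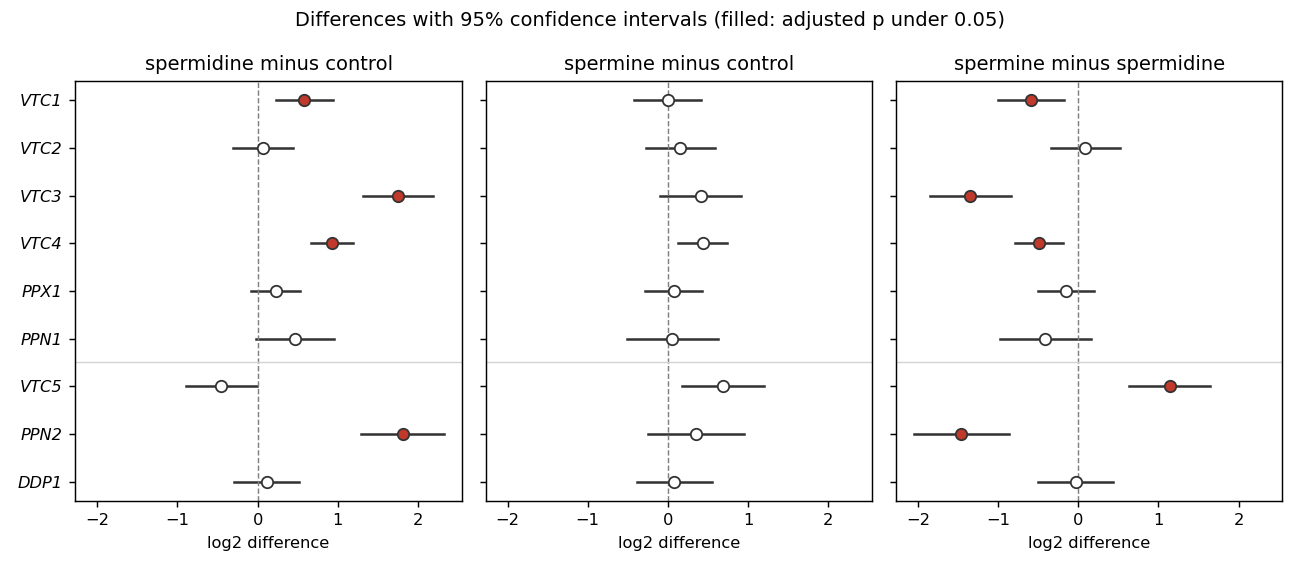
Log2 differences (horizontal axis) with 95% confidence intervals for the 6 members and, under the line, VTC5, PPN2 and DDP1, in the 3 comparisons. Filled points have a limma adjusted p under 0.05 over all genes tested. VTC1, VTC3, VTC4 and PPN2 lie above 0 with spermidine and below 0 for spermine minus spermidine, VTC5 is called the other way in the last comparison, and no point is filled for spermine minus control.

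The members also differed among themselves across arrays. VTC3 and VTC4 had a Pearson correlation of 0.91 over the 13 arrays, and 0.43 after each group's mean was removed, so most of it lies between groups. VTC1 and VTC3 stood at 0.83 and 0.58. VTC2 and PPX1 behaved the other way, at 0.74 over all arrays and 0.83 within groups, both being low on controls 2 and 3. On those arrays VTC2 was at 336 and 367, against 535 to 630.0 on controls 1, 4 and 5, and PPX1 at 429.8 and 460.1 against 578 to 644. Over the 13 arrays the mean of the general stress genes had a correlation of -0.80 with VTC1, -0.57 with VTC2, -0.80 with VTC3, -0.70 with VTC4, -0.89 with PPX1 and -0.17 with PPN1. For PPN2 it was -0.88, for VTC5 0.54 and for DDP1 0.10. These are descriptions, arrays of a group share their treatment, and the part of the stress genes in the members' values was not tested. Among the controls, the VTC4 signals on controls 2 and 3 (952 and 989) lay within the range of the others (834 to 989.8).

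**Figure D4:**
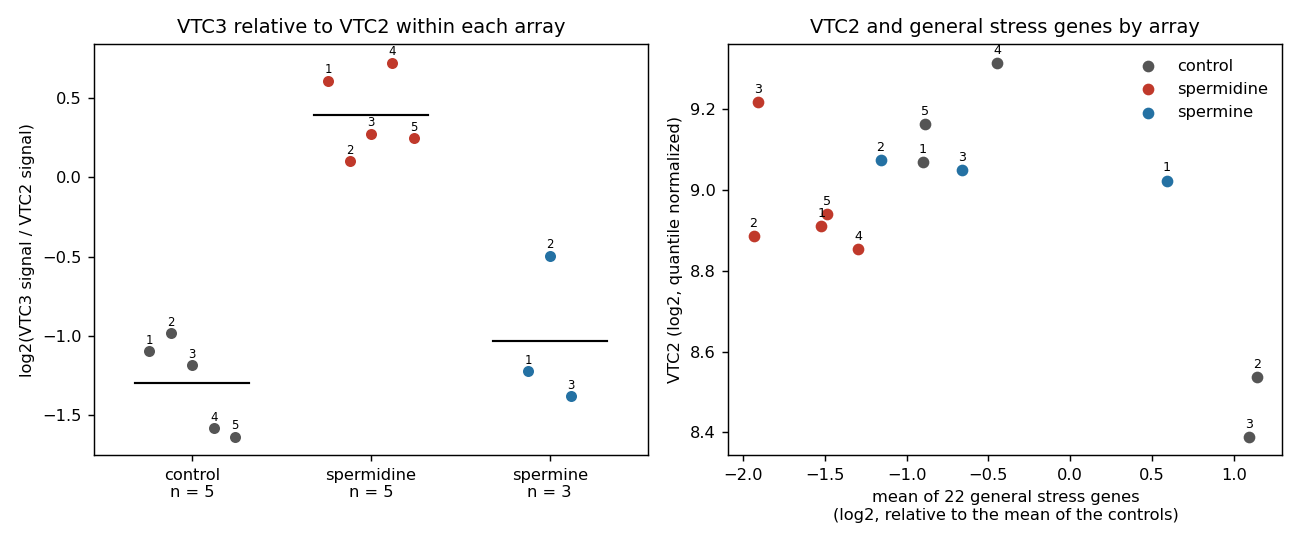
Left, log2 of the VTC3 signal over the VTC2 signal within each array, by group, with replicate numbers and group means. Right, VTC2 (log2, quantile normalized) against the mean of 22 general stress genes (log2, relative to the control mean) on each array. On the left all 5 spermidine arrays lie above the arrays of the other groups, and controls 2 and 3 combine the highest stress means with the lowest VTC2 values on the right.

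The 3 genes whose profile over the 13 arrays was most like that of each member were listed by Pearson correlation. For VTC3 they were GDE1, a glycerophosphocholine phosphodiesterase (0.97), VBA1, a vacuolar transporter of basic amino acids (0.96), and HIR3, a nucleosome assembly factor (0.96). For VTC4 they were the phosphate transporter gene PHO84 (0.95), the mitochondrial carrier gene ODC2 (0.95) and BCK2 (0.95). After group means were removed these fell to 0.85 for GDE1, 0.69 for VBA1 and 0.63 for HIR3 with VTC3, and to 0.68 for PHO84, 0.50 for ODC2 and 0.39 for BCK2 with VTC4. VTC1 was closest to GAS5, a glucan-remodelling enzyme of the cell wall (0.97), YEF1, an NADH kinase (0.95), and NAS6, a proteasome assembly factor (0.94). VTC2 was closest to NIP1, a subunit of the translation factor eIF3 (0.96), and to the ribosome assembly genes NOP8 (0.93) and RRP9 (0.92). PPX1 was closest to CCE1, MRI1 and EBP2 (0.92 to 0.96), and PPN1 to SIR4, CDC48 and PCF11 (0.84 to 0.89). For the partners of VTC1, VTC2, PPX1 and PPN1 the values after group means were removed stayed at 0.834 to 0.955. Those likenesses thus lie largely in differences between arrays of a group. All were picked as the highest among the genes tested, so part of their height comes from the choice.

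Around the members, the phosphate regulon was read from a list of Pho4 target genes other than the members. Of 13 listed genes, 11 are named by a probe set and 9 were bright enough to test. The list was chosen with earlier results of these data known. With spermidine 6 of these 9 rose and 1 fell, where 17.9% of all genes rose and 14.7% fell. The median log2 difference was 1.04, beside 0.02 over all genes. One of the 6, GIT1, passed the filter only through its spermidine arrays, its mean over the other arrays being log2 5.00 against a filter at 5.24, so it had to differ. Without it 5 of 8 rose and 1 fell, with a median of 0.87. PHO84, the high-affinity phosphate transporter, rose 14.0-fold, GDE1 2.06-fold, PHO5, a secreted acid phosphatase, 2.24-fold, and PHO81, the inhibitor of the Pho80-Pho85 kinase, 1.62-fold. PHO84 signals rose from 228 ± 68.0 (SD, n = 5) to 3166 ± 758 (SD, n = 5). PHM8, a nucleotide phosphatase gene, fell by 1.33 on the log2 scale (limma adjusted p = 0.0366), a call lost in 10 of 25 settings. Without controls 2 and 3 it stood at -0.73 (adjusted p = 0.235). PHM6 and SPL2 were under the filter. PHM6 had group means of 5.87, 63.7 and 6.13 in controls, spermidine and spermine, of which only the spermidine mean exceeded the 95th percentile of the control probe sets in its group, 17.7. SPL2, a regulator of low-affinity phosphate uptake, did not show such a difference, at 35.0, 30.9 and 35.5.

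Against the controls, spermine gave 0 called genes among these 9 (median log2 0.40), beside 0.0196% of all genes. Of the 9, 4 (PHO84, PHO89, PHO81 and GDE1) had an unadjusted limma p under 0.05. The share of all genes under that looser cut was not counted, so these 4 cannot be set against a background. Between the polyamines 4 of the 9 were lower with spermine and 0 higher, or 3 of 8 without GIT1. Over all genes 11.1% were lower and 9.41% higher. PHO84 was 5.27-fold lower and GDE1 1.57-fold lower, with adjusted p-values of 0.00353 and 0.00597, and both held in every setting. PHO5 was 1.72-fold lower (limma adjusted p = 0.0315), a call lost in 7 of 24 settings. GIT1, a transporter of glycerophosphodiesters, averaged 33.8 ± 17.7 (SD, n = 5) on controls. Its spermine mean was 46.2 ± 14.0 (SD, n = 3) and its spermidine mean 206 ± 107 (SD, n = 5). PHO84 varied widely between the spermine arrays, from 309.6 to 2103. PHO89, called with spermidine (log2 1.45 ± 0.27, limma adjusted p = 9.73e-04), was at 1.22 ± 0.32 with spermine against control (adjusted p = 0.227). Between the polyamines PHO89 was not called (log2 -0.23 ± 0.32, adjusted p = 0.654). Its spermine difference from control passed in 2 of 25 settings. These were array weights (adjusted p = 0.0136) and leaving out controls 2 and 3 and spermine 1 (adjusted p = 0.0383).

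Of 7 tested regulators and low-affinity phosphate transporters, 2 rose with spermidine and 0 fell, a share of 28.6% beside 32.6% of all genes. The gene of the transcription factor Pho4 itself rose 2.68-fold (log2 1.42 ± 0.19, limma adjusted p = 5.15e-05), from 158 ± 44.0 (SD, n = 5) to 428 ± 92.7 (SD, n = 5). With spermine it was at 276 ± 20.4 (SD, n = 3), log2 0.81 ± 0.21 (adjusted p = 0.227). That difference passed in 1 of 25 settings, with array weights (0.93, adjusted p = 0.0251). Between the polyamines PHO4 was not called (log2 -0.62), but 5 of 25 settings called it lower with spermine. SYG1, a plasma membrane protein with an SPX domain like that of Vtc2, Vtc3 and Vtc4, rose by log2 0.43 ± 0.15, a call lost in 14 of 25 settings. PHO90, a low-affinity phosphate transporter, was higher with spermine than with spermidine by log2 0.55 ± 0.16 (adjusted p = 0.0245), a call lost in 7 of 25 settings. Among 5 tested enzymes of inositol phosphates, whose pyrophosphate products are bound by SPX domains, 1 rose with spermidine and 0 fell, or 20% beside 32.6% of all genes. It was PLC1, phospholipase C, at log2 0.88 ± 0.25. Without controls 2 and 3 it stood at 0.67 (adjusted p = 0.0825). KCS1 and VIP1, the kinases that make the pyrophosphates, were at 0.10 ± 0.21 and -0.11 ± 0.22.

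The VTC complex depends on the proton gradient of the V-ATPase. Of 14 tested subunit genes 1 rose and 2 fell with spermidine, a share of 21.4% beside 32.6% of all genes. STV1, which encodes the form of the membrane subunit a found in the Golgi and endosomes, rose 3.08-fold (log2 1.62 ± 0.23, limma adjusted p = 9.91e-05). VPH1, the vacuolar form of that subunit, was at 0.20 ± 0.10 (adjusted p = 0.133). VMA1 and VMA13, subunits of the peripheral domain, fell by 0.66 and 0.57 on the log2 scale, the call of VMA13 being lost in 6 of 25 settings. STV1 was 2.56-fold lower with spermine than with spermidine (adjusted p = 0.00226).

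Polyphosphate shares the vacuole with basic amino acids and metal ions, and 12 transporter genes for these were tested. With spermidine 3 rose and 0 fell, or 25% beside 32.6% of all genes. COT1, a zinc and cobalt transporter, rose 2.47-fold, VBA1 2.25-fold and RTC2, a putative vacuolar transporter of cationic amino acids, 7.69-fold (log2 2.94 ± 0.73, limma adjusted p = 0.00687). RTC2 signals on controls ran from 5.25 to 149, so the size of its rise is uncertain. VBA1 and RTC2 were 1.82-fold and 5.65-fold lower with spermine than with spermidine, the RTC2 call being lost in 12 of 24 settings. COT1 with spermine was at log2 0.88 ± 0.17 against control (adjusted p = 0.0724). It passed in 2 of 25 settings, with array weights (0.98, adjusted p = 0.00714) and without controls 2 and 3 (1.01, adjusted p = 0.0451). In the others the limma adjusted p went up to 0.388.

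**Figure D5:**
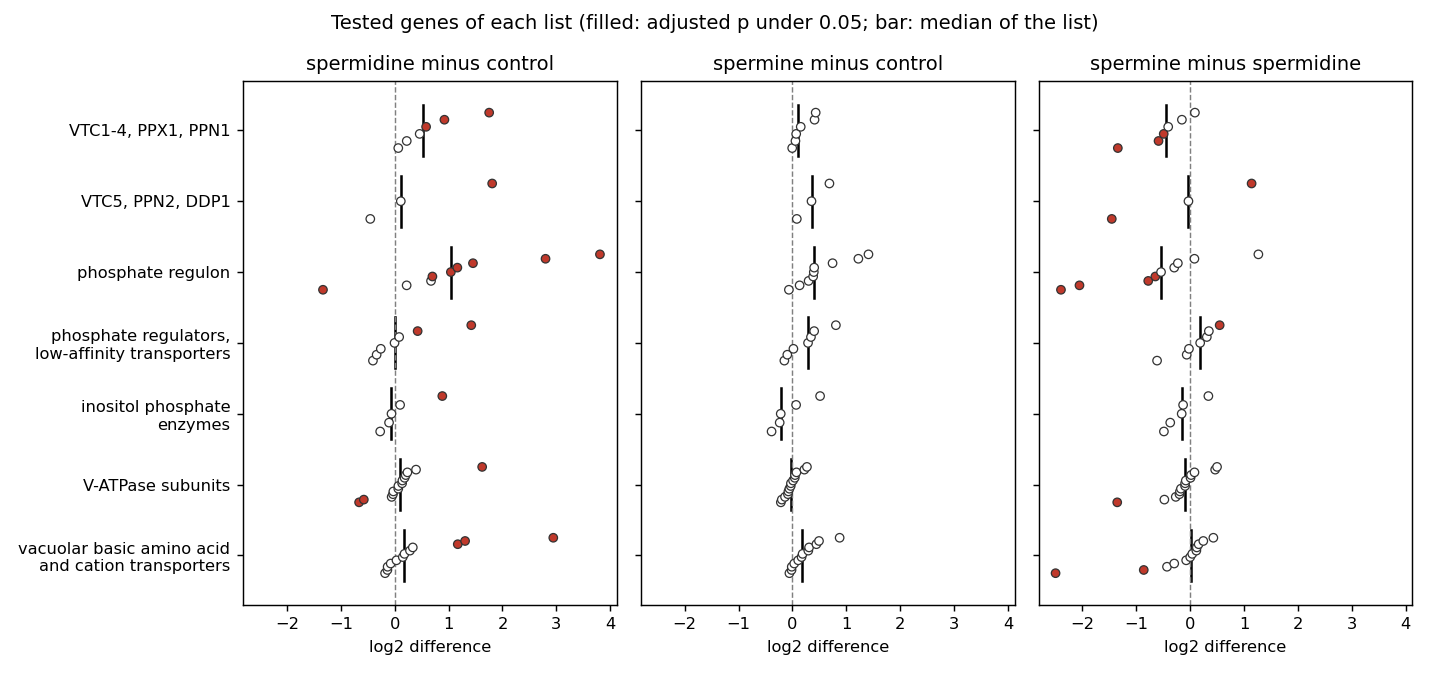
Log2 differences (horizontal axis) of the tested genes of each list in the 3 comparisons, with filled points for a limma adjusted p under 0.05 over all genes and a bar at the median of the list. The phosphate regulon has the highest median with spermidine (1.04, or 0.87 without GIT1), the members follow at 0.52, and no point is filled for spermine minus control.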

How the data were processed

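Per the labels, total RNA was biotin-labelled and hybridised to 13 arrays, and the deposited intensity values were made by the authors with MAS5 (version unknown here). The trimmed mean of each array was 500.4 to 500.5, so the values had been scaled per array. Of 9335 probe sets 60 controls were left out. Of the others 6504 name 1 gene in the platform annotation, 328 several and 2443 none, and all 6504 identifiers matched the reference table.

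Array medians differed by 1.29-fold, so log2 signals were quantile normalized, without a pseudocount. The dimmest 25% of probe sets by mean (signal under 37.8) were removed, and a gene was represented by its brightest remaining probe set. With R 4.3.3, limma 3.58.1 fitted group means over all 13 arrays, using a trend of variance with intensity, and was checked on simulated data. Alternatives were other normalizations, a pseudocount of 16, other filters, no trend, array weights, fits of 2 groups, a replicate block, probe set means and arrays left out. The members and lists were chosen with earlier results of these data known. Named genes are the members, VTC5, PPN2, DDP1, up to 4 called genes per list and comparison, a called gene against its list, and the 3 most correlated genes per member. PHO89, PHM6, SPL2, KCS1, VIP1 and VPH1, the VTC3 to VTC2 ratio, and the probe set fits were added after values were seen. Sequences were not used here. Figures were drawn with matplotlib 3.10.9.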

Additional observations from a re-analysis of the deposited data

Results flagged for a closer look

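Among 20 groups of 5 arrays examined, 2 had an array far from the others by Dixon's test at the 95% level, where chance flags about 1 in 20 groups. Both concern VTC4. On the brighter probe set, control 5 had a signal of 834, the nearest control being at 952, and on the other probe set spermidine 2 had 1948, the nearest spermidine array being at 1537. On the brighter probe set the difference between spermidine and control was log2 0.87 without control 5 and 0.91 without spermidine 2, both past the threshold. Spermidine 2 was not flagged on that probe set. The probe set on which it was flagged was not fitted without it.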

How the results depend on the processing

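No alternative reversed a called direction, and an uncalled value that changed sign without passing the threshold was counted as the same. With spermidine against control, the count of called members was 2 or 3 under every alternative, and VTC3 (log2 1.59 to 1.84) and VTC4 (0.87 to 1.06) passed in each. With spermine against control, no member passed in any setting, while the count of called genes, 1, became 46 with array weights, 2 with a replicate block, 13 without controls 2 and 3, and 0 to 4 when each array was left out in turn. Between the polyamines, the 3 called members became 1 with a replicate block, 1 without controls 2 and 3 and spermine 1, and 1 to 3 when each array was left out. The 1047 called genes became 622 with the block and 718 to 1073 with each array left out. The causes were not tested, and leaving arrays out changes both their number and the values used. Replicate numbers did not pair the arrays: of 11 same-numbered pairs the correlation of deviations ran from -0.567 to 0.203, and 0 of 13 arrays matched its own number best. With the block 3, 0 and 1 members were called in the order of the comparisons above.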
